A study of Mus musculus with 21 samples.

Results

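The contractile smooth muscle genes examined here are *Acta2*, *Tagln*, *Myh11*, *Cnn1*, *Myl9*, *Des*, *Actg2*, *Lmod1*, *Tpm2* and *Mustn1*. They were chosen by name, and all 10 are among the 32285 genes of the counts. Their unique molecular identifiers (UMIs, each standing for 1 captured RNA molecule) were followed across cell types of the tumor microenvironment (TME), with the question whether fibroblasts of primary melanoma (MM) or of lung metastases carry them. The hosts were mT/mG mice, whose cells all express the red protein tdTomato because no Cre was used, and which received unlabeled MT-ret melanoma fragments under the skin. Both sexes were used. The groups were the TME of lung metastases, taken after the primary tumor had been resected, the TME of primary tumors, unchallenged lung from mice without a tumor, and MM cells sorted from either site. Cells were dissociated, frozen and thawed for 10x 3' sequencing. Host cells were sorted as living tdTomato+ or living tdTomato+ CD45- cells, and which of these gates a given library passed is not stated. The MM cells lack tdTomato and were handled as libraries of their own.

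Counted once, 100359 cells remained. Of 24 library names 5 proved identical to another in barcodes and counts, and the names of replicates 1-3 were joined into 1 library for each tumor site, which left 16 libraries. By its names, replicate 5 of the lung metastasis TME carries the same pair of mouse numbers as replicate 5 of the primary tumor TME, and the same holds for replicate 6, so that the sites share a mouse within a replicate by these names. Replicate 4 has a number of its own at each site, and unchallenged lung has others. The table of lung metastasis replicate 6 is also named as sorted MM cells, with a further mouse number, so its names do not fix its sort. The names of replicate 4 carry another run number than those of replicates 5 and 6, and what a run was is not stated. The TME and lung libraries hold 1777036 to 53506609 UMIs, and at most 1.09% of the barcodes of the smaller library were shared by a pair of libraries. In all comparisons, libraries were the replicates. P-values measure the spread between these libraries, apart from those of fits without the filter on low counts, as stated below.

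Contraction of smooth muscle is driven by myosin that pulls on actin filaments. The actins *Acta2* and *Actg2*, the myosin heavy chain *Myh11* and the light chain *Myl9* form this motor, *Tpm2* (tropomyosin), *Cnn1* (calponin) and *Tagln* (transgelin) bind the actin filament, *Lmod1* seeds it, *Des* (desmin) is an intermediate filament, and *Mustn1* is a small protein of muscle and mesenchymal cells. Pericytes and smooth muscle cells carry most of these genes in lung and tumors, and fibroblasts that switch on *Acta2* together with matrix genes are called myofibroblasts. Transcription of many of them depends on serum response factor, which binds the CArG box, a stretch of C and G pairs around a core of A and T.

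The genes lie on 8 chromosomes (GRCm38, GENCODE vM21), with *Acta2* at chr19:34241090-34255590 on the minus strand, *Myl9* at chr2:156775420-156781658 on the plus strand, *Tagln* and *Cnn1* on chromosome 9, and *Des* and *Lmod1* on chromosome 1. RefSeq windows of 250 bases before the start site (GRCm38.p6) were at hand for 7 of the 10 genes, all but *Tagln*, *Myh11* and *Actg2*. A CArG box on either strand was present in 1 of these 7 windows, that of *Myl9*, against 1.47% of all 32851 windows. A box with exactly 1 of the 6 middle bases other than A or T, counted apart from complete boxes, was present in 2 windows, those of *Acta2* and *Myl9*, against 7.24% of all. The other motif searched, the MCAT box CATTCC on either strand, was present in the windows of *Acta2* and *Lmod1*, against 12.6% of all. The CArG sites are shown because *Acta2* is the gene by which fibroblasts are usually called contractile and *Myl9* holds the one complete box. Each line gives 30 bases, 5′ to 3′ on the strand of the gene, with the 10 bases of the box in capitals and its distance to the RefSeq start site. The *Myl9* sites are chr2:156775293-156775322 and chr2:156775355-156775384 and lie upstream of the GENCODE gene. The *Acta2* sites are chr19:34255438-34255467 and chr19:34255388-34255417 and lie within the GENCODE gene, which starts farther upstream than the RefSeq one.
Myl9, 161 bases before the start, complete: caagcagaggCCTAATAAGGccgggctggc
Myl9, 99 bases before the start, 1 middle base other: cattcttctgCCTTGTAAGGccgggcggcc
Acta2, 84 bases before the start, 1 middle base other: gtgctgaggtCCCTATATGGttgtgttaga
Acta2, 34 bases before the start, 1 middle base other: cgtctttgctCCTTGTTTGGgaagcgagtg

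Cells were clustered without the 10 genes and without their contractile partner genes, so that the clusters do not rest on them. Of the cells with fibroblast markers, 132 formed a cluster in which 10 of 10 pericyte markers were raised, among them *Rgs5* and *Notch3*, and are called pericyte-like. Another 131 raised 7 of 10 peribronchial markers, led by *Actc1* and *Hhip*, and are called peribronchial-like. Clusters led by genes of another cell type, 3479 cells in all, were set aside, and 1558 fibroblasts remained. A cluster of 310 mesothelial-like cells, led by *Gpm6a*, *Upk3b* and *Msln*, was not set aside and is counted among these. Unchallenged lung gave 301 of these, the lung metastasis TME 357 and the primary tumor TME 882. At least 20 fibroblasts were present in 8 libraries. These are replicates 4, 5 and 6 of unchallenged lung, 5 and 6 of the lung metastasis TME and 4, 5 and 6 of the primary tumor TME, with 37 to 619 fibroblasts each.

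The 10 genes were highest in pericyte-like and peribronchial-like cells and low in fibroblasts. Summed over the 10 genes, the level in counts per 1000000 UMIs (CPM) was 11551 in the 27 pericyte-like cells of lung metastasis replicate 5 and 11245 in the 56 of primary tumor replicate 4, the libraries with at least 20 such cells. In fibroblasts the sum was 302 ± 49.4 CPM in unchallenged lung (SD, n = 3), 848 ± 225 in the lung metastasis TME (n = 2) and 413 ± 139 in the primary tumor TME (n = 3). Blood endothelial cells (BEC), which should lack most of these genes, ranged from 0 to 336 CPM over 13 libraries, and macrophages 0 to 68.7 CPM over 11 libraries. The fibroblast libraries, at 253 to 1008 CPM, thus lay between BEC and the pericyte-like cells and overlapped the highest BEC libraries. The other named types of the lung and the immune system reached at most 106 CPM, and MM cells at most 146 CPM.

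**Figure D1:**
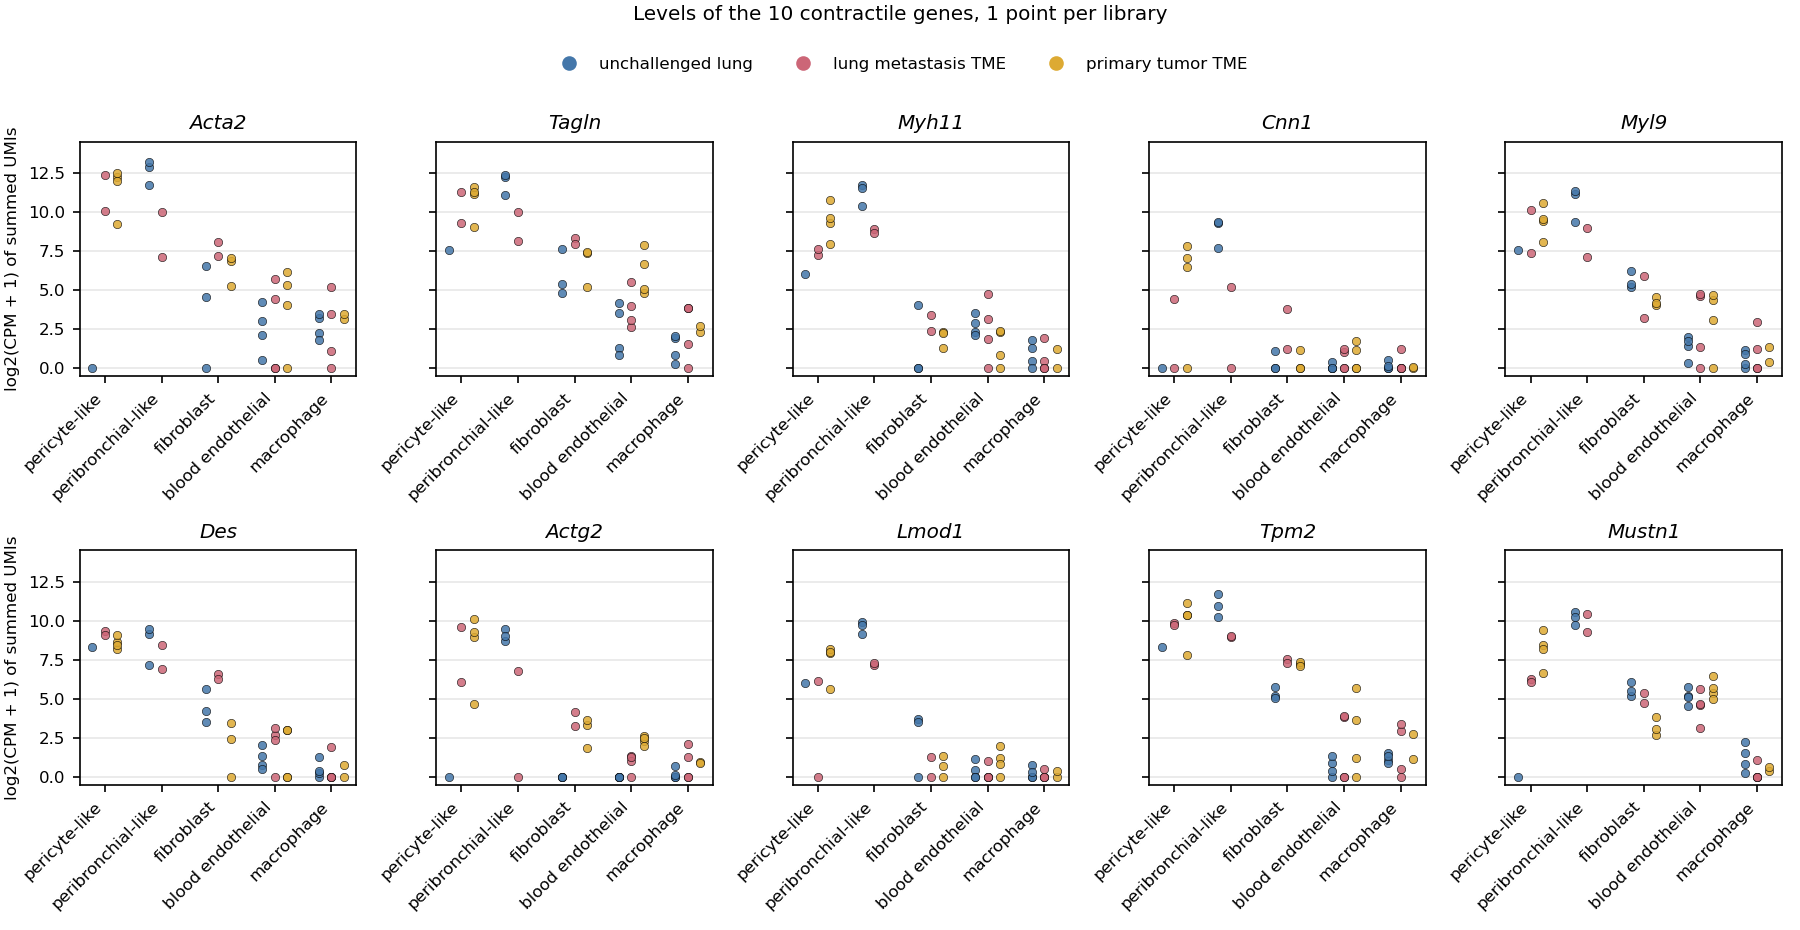
Level of each of the 10 genes, as log2 of CPM plus 1, in 5 cell types, with 1 point per library and colors for the 3 tissues. Pericyte-like and peribronchial-like groups of at least 5 cells and other groups of at least 20 cells are drawn, and for *Acta2* the tumor fibroblasts, at 38.2 to 274 CPM, lie below the pericyte-like groups of the tumors, at 613 to 5870 CPM.

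*Acta2*, alpha smooth muscle actin, was at 5276 CPM in the 27 pericyte-like cells of lung metastasis replicate 5 and at 1067 CPM in the 7 of replicate 6. In the primary tumor TME it was at 4763, 5870 and 3994 CPM in the 56, 10 and 18 pericyte-like cells of replicates 4, 5 and 6, and at 613 CPM in the 5 of replicates 1-3. Of the 308 *Acta2* UMIs of replicate 5, 200 came from 1 cell, and of its 92 *Myh11* UMIs 63 came from 1 cell. The 5 pericyte-like cells of unchallenged lung replicate 4 held 0 *Acta2* UMIs. In fibroblasts *Acta2* was at 0, 22.7 and 93.9 CPM in unchallenged lung replicates 4, 5 and 6, at 274 and 147 CPM in lung metastasis replicates 5 and 6, and at 38.2, 118 and 131 CPM in primary tumor replicates 4, 5 and 6. Every fibroblast library with at least 20 cells was below every pericyte-like group of the tumors.

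*Tagln* was likewise high in pericyte-like cells of the tumors, at 2491 and 633 CPM in the pericyte-like cells of lung metastasis replicates 5 and 6 and at 2289, 3069 and 2446 CPM in those of primary tumor replicates 4, 5 and 6. Its fibroblast levels were 193, 27.2 and 41.1 CPM in unchallenged lung, 321 and 252 CPM in the lung metastasis TME and 35.5, 165 and 172 CPM in the primary tumor TME, in the order of the replicates. In BEC *Tagln* ranged from 0 to 240 CPM, and 6 of the 8 fibroblast libraries lay within that range. The highest of these BEC libraries, primary tumor replicates 1-3, held 59 of its 60 *Tagln* UMIs in 5 of 51 cells, and without it BEC reached 102 CPM and 3 of the 8 fibroblast libraries lay within the range.

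*Myh11* and *Cnn1*, the genes most closely tied to mature smooth muscle, were nearly missing from fibroblasts. *Myh11* reached 627, 1753 and 796 CPM in pericyte-like cells of primary tumor replicates 4, 5 and 6 and 151 and 200 CPM in those of lung metastasis replicates 5 and 6. The 8 fibroblast libraries held 0 to 14 *Myh11* UMIs each, or 0 to 15.9 CPM. *Cnn1* reached 87.3 to 228 CPM in the same 3 primary tumor groups, while the fibroblast libraries held 0 to 4 UMIs of it each. In the lung metastasis TME the pericyte-like cells held 3 *Cnn1* UMIs in 1 cell of replicate 5 and 0 in replicate 6, so that *Cnn1* did not separate them from fibroblasts there, which stood at 12.6 CPM in replicate 6. *Lmod1* and *Actg2* were likewise sparse in fibroblasts, at 0 to 9 and 0 to 36 UMIs per library, against 240 to 286 CPM and 488 to 1125 CPM in those pericyte-like groups. In unchallenged lung, 0 *Actg2* UMIs were found in all 3 fibroblast libraries, where 3 UMIs would correspond to 3.40 to 11.8 CPM.

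*Mustn1* was also found in BEC. It was at 21.9 to 53.9 CPM in BEC of unchallenged lung, at 7.61 to 47.4 CPM in those of the lung metastasis TME and at 31.0 to 87.9 CPM in those of primary tumors, against 0 to 3.68 CPM in macrophages of any library. In BEC of unchallenged lung *Acta2* and *Tagln* lay below it, at up to 18.3 and 17.1 CPM. This order did not hold in all tumor libraries, since BEC of primary tumor replicate 6 held 102 CPM of *Tagln* and 71.9 CPM of *Acta2* against 31.0 CPM of *Mustn1*, and those of lung metastasis replicate 5 held 44.4 and 51.7 CPM against 22.7 CPM. In the latter library *Mustn1* was higher in fibroblasts, at 40.2 CPM, than in BEC. Fibroblasts of the primary tumor TME, at 5.27 to 13.4 CPM of *Mustn1*, lay below the BEC of their own libraries, which held 40.9, 51.2 and 31.0 CPM in replicates 4, 5 and 6.

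Few fibroblasts carried several of the genes at once. Each cell was thinned to 1000 UMIs, because libraries differ in depth, and the genes with a UMI were counted. At least 3 of the 10 genes were found in 0 of 295 fibroblasts of unchallenged lung, in 9 of 356 of the lung metastasis TME (2.53%) and in 8 of 869 of the primary tumor TME (0.921%). The same was true of 19 of 34 pericyte-like cells of the lung metastasis TME (55.9%) and 60 of 89 of the primary tumor TME (67.4%). No gene of the 10 had a UMI in 65.7% of the fibroblasts of the lung metastasis TME and in 71.1% of those of the primary tumor TME, against 14.7% and 14.6% of the pericyte-like cells. In BEC at least 3 genes were found in 0.0446% of cells of unchallenged lung, 0.134% of the lung metastasis TME and 0.562% of the primary tumor TME, so that primary tumor fibroblasts, with 8 of 869, lay close to BEC of the same tissue.

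**Figure D2:**
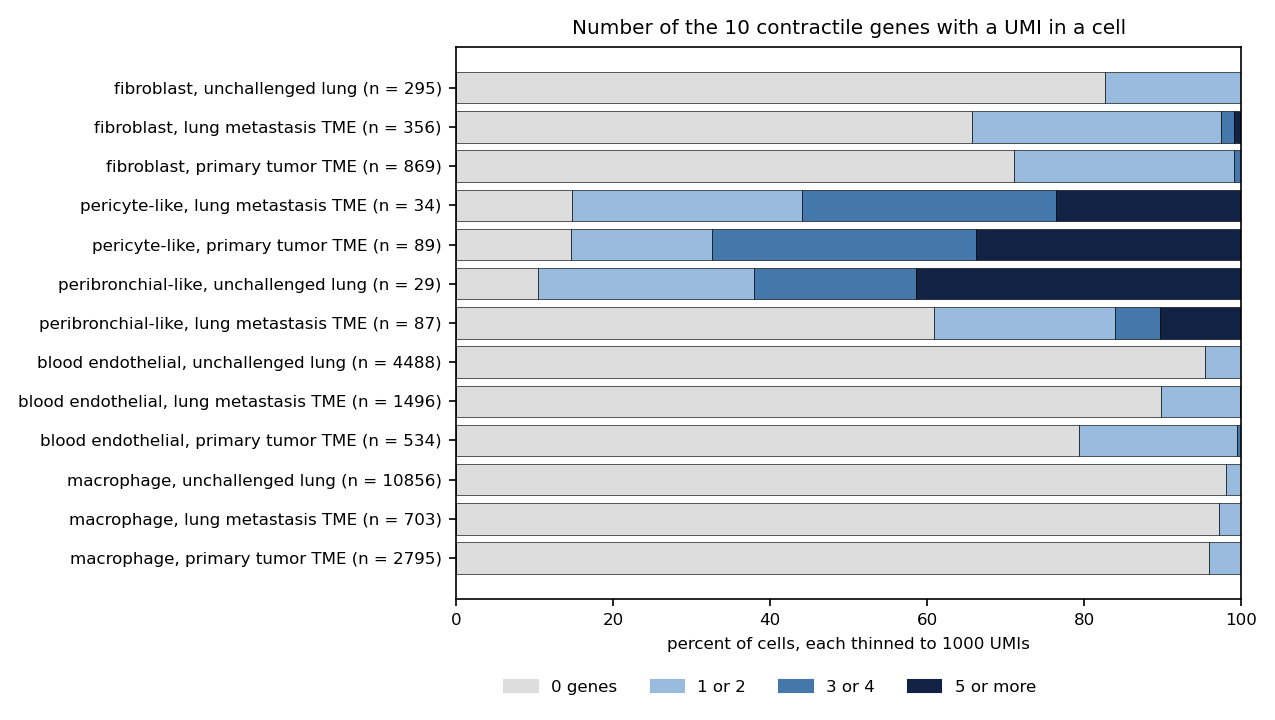
Share of cells, in percent, in which 0, 1 or 2, 3 or 4, or at least 5 of the 10 genes had a UMI after thinning to 1000 UMIs, by cell type and tissue, with the number of cells beside each bar. At least 3 genes were present in 2.53% of fibroblasts of the lung metastasis TME, 0.921% of those of the primary tumor TME and 67.4% of pericyte-like cells of the primary tumor TME.

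For *Acta2* alone, the share of fibroblasts with a UMI was 10.4% in lung metastasis replicate 5 and 8.33% in replicate 6, against 2.79% of BEC in the former and 1 of 200 BEC in the latter. In primary tumor replicates 4, 5 and 6 it was 2.94%, 7.83% and 11.5%, against 0.840%, 5.36% and 11.0% of BEC. Without thinning these shares were 24.9% and 18.9% of fibroblasts in lung metastasis replicates 5 and 6, against 5.50% and 6.67% of BEC. In primary tumor replicates 4, 5 and 6 they were 16.2%, 25.0% and 35.4% of fibroblasts, against 10 of 125, 14.8% and 28.8% of BEC. The fibroblasts of these libraries had medians of 3514 to 6359 UMIs per cell and the BEC medians of 1829 to 6412 UMIs, before thinning. In primary tumor replicate 6 the share of fibroblasts with *Acta2* after thinning was thus close to that of BEC, while the *Acta2* level was 131 CPM in fibroblasts and 71.9 CPM in BEC. The part of free RNA in these values was not tested. *Tpm2*, in contrast, had a UMI in 19 of 136, 16 of 115 and 76 of 607 fibroblasts of primary tumor replicates 4, 5 and 6, against 0.840%, 0.893% and 7.87% of BEC.

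*Acta2* was also read together with matrix genes in single cells. *Postn* encodes periostin, a matrix protein of activated fibroblasts. *Acta2* had a UMI in 0 of 44, 6 of 59 and 24 of 209 fibroblasts with *Postn* in primary tumor replicates 4, 5 and 6, and in 4 of 92, 3 of 56 and 46 of 398 without it. In lung metastasis replicates 5 and 6 it had one in 2 of 13 and 0 of 4 with *Postn* and in 30 of 296 and 3 of 32 without. The direction was thus not the same in all libraries. *Cthrc1* is another gene of activated fibroblasts. With *Cthrc1*, *Acta2* was found in 8.33%, 15.4% and 13.2% of the 12, 26 and 106 cells of primary tumor replicates 4, 5 and 6, and without it in 2.42%, 5.62% and 11.2%. In lung metastasis replicate 5 it was found in 2 of 6 cells with *Cthrc1* and 9.90% of the 303 without. The share was higher with *Cthrc1* in these 4 libraries, from 1 to 14 cells with both genes in each. Cells with *Postn* and at least 3 of the contractile genes numbered 3, 1 and 0 in primary tumor replicates 6, 5 and 4 and 1 and 0 in lung metastasis replicates 5 and 6. With *Col1a1*, a main collagen of fibroblasts, these cells numbered 5, 2 and 1 in primary tumor replicates 6, 5 and 4 and 8 and 1 in lung metastasis replicates 5 and 6, and 0 cells without a *Col1a1* UMI held at least 3 of the genes. *Acta2* had a UMI in 13.1% of fibroblasts with *Col1a1* and 4.85% without in lung metastasis replicate 5, and in 11.7% and 10.1% in primary tumor replicate 6. In primary tumor replicates 4 and 5 it had one in 3.25% and 8.33% with *Col1a1* and in 0 of 13 and 0 of 7 cells without, and in lung metastasis replicate 6 in 2 of 27 with and 1 of 9 without. These counts describe single libraries, and no test was made.

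By cluster, the highest *Acta2* level among primary tumor fibroblasts was in a tumor fibroblast-like cluster led by *Stc1*, *Apod* and *Igfbp3*, at 216 CPM over its 256 cells from 3 libraries. It was highest in primary tumor replicate 6, at 342 CPM in 209 cells, while the 38 cells of replicate 4 were at 49.2 CPM. A further tumor fibroblast-like cluster, with *Lrrc15* among its leading genes and the highest *Col1a1* level of all clusters (17993 CPM), held 85.3 CPM of *Acta2* and 3.10 CPM of *Myh11* in its 105 cells. Parenchymal fibroblast-like cells of primary tumors held 85.7 CPM of *Acta2* in 495 cells. In the lung metastasis TME, 246 of the 357 fibroblasts were mesothelial-like, with 9 of 9 mesothelial markers raised, and held 151 CPM of *Acta2*, 230 CPM of *Tagln* and 88.2 CPM of *Des*. *Wt1*, *Lgals7* and *Cxadr*, among the leading genes of this cluster, are in the paper's signature of metastasis cancer-associated fibroblasts. The paper ascribes alveolar and peribronchial fibroblasts in its metastasis samples to a small amount of adjacent tissue without tumor. The 56 mesothelial-like cells of unchallenged lung held 15.4 CPM of *Acta2* and 0 *Tagln* UMIs.

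A large part of the fibroblast *Acta2* came from few cells in the tumor libraries other than primary tumor replicate 6. In lung metastasis replicate 5, 9 of 309 fibroblasts belonged to the *Stc1*, *Apod* and *Igfbp3* cluster, stood at 3272 CPM of *Acta2* and held 203 of the 402 *Acta2* UMIs (50.5%). Without them the level of this library was 142 CPM of *Acta2* in place of 274, a change of over 1.5 times. For *Tagln* they held 31.0% of the UMIs, for *Actg2* 84.0%, for *Des* 24.5%, for *Tpm2* 19.2% and for *Mustn1* 6.78%. In lung metastasis replicate 6, 25 of 35 *Acta2* UMIs came from 1 cell, and the 5 highest cells held 94.3%. Of the 9 cells of lung metastasis replicate 5, 6 carried at least 3 of the 10 genes (66.7%, exact 95% interval 29.9 to 92.5), with 7785 CPM summed over the 10, and they made up 6 of the 8 such fibroblasts of that library. In the same cluster at least 3 genes were found in 1 of 38, 1 of 8 and 2 of 197 cells of primary tumor replicates 4, 5 and 6. When the 10 genes and their partners were kept for clustering, tumor fibroblast-like clusters held 0 and 2 lung metastasis TME cells in place of 9. The pericyte-like cluster then held 39 in place of 34, and which cells moved was not followed. The 5 highest cells held 41.4%, 46.8% and 15.6% of the 29, 79 and 418 *Acta2* UMIs of all fibroblasts in primary tumor replicates 4, 5 and 6, and 45.3% in lung metastasis replicate 5.

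**Figure D3:**
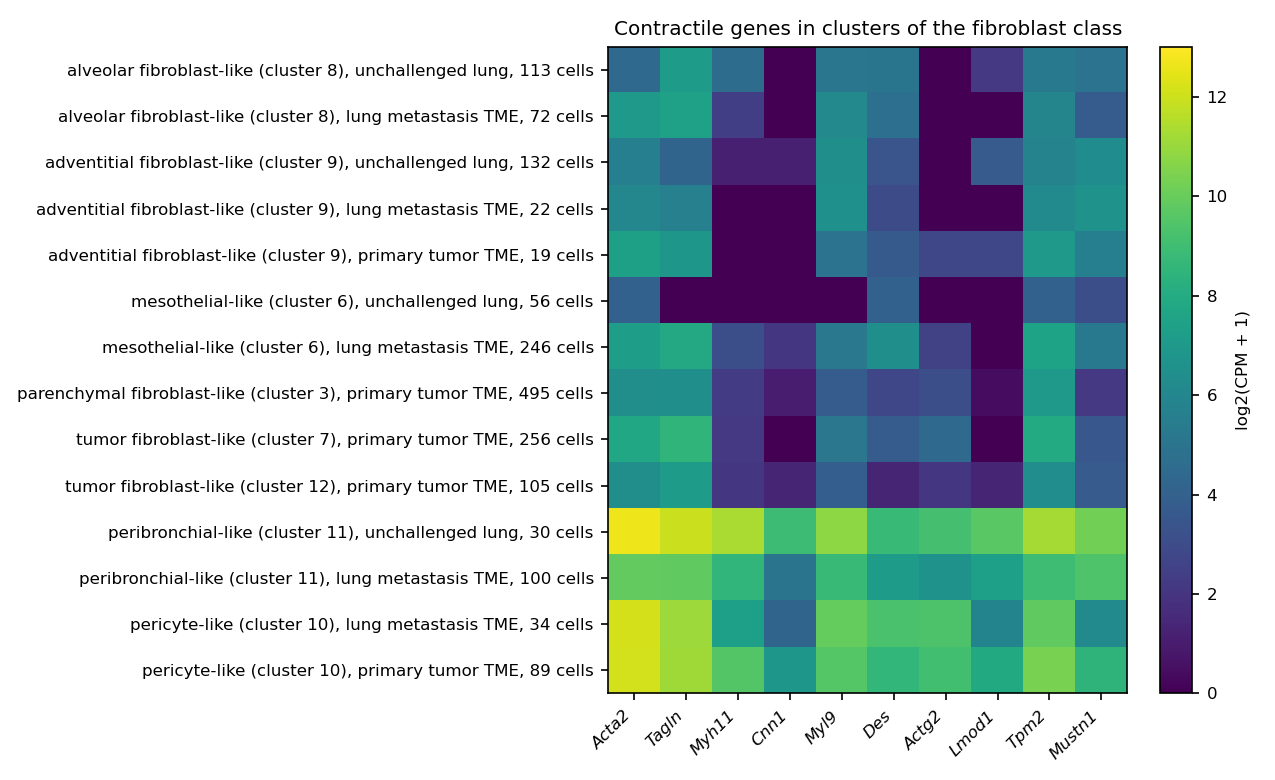
Level of the 10 genes (columns), as log2 of CPM plus 1 in color, in clusters of the fibroblast class by tissue (rows), with UMIs summed over libraries. Peribronchial-like and pericyte-like rows are bright for nearly all genes, for example 4401 CPM of *Acta2* in pericyte-like cells of the primary tumor TME, and the tumor fibroblast-like rows are not, at 216 and 85.3 CPM.

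Over the 3 tissues, *Tpm2*, *Des* and *Mustn1* were the genes whose fibroblast level passed a test. UMIs of fibroblasts were summed per library and fitted with edgeR, with 1 fit for the 8 libraries and Benjamini-Hochberg adjustment over 9805 genes. Of the 10 genes, *Acta2*, *Tagln*, *Myl9*, *Des*, *Tpm2* and *Mustn1* had enough counts to be tested, and *Myh11*, *Cnn1*, *Actg2* and *Lmod1* had not. The 3 comparisons share libraries, so their results are not independent of each other. Primary tumors grew under the skin, and unchallenged skin was not sampled. Tumor and organ can therefore not be told apart where primary tumors are compared with lung, nor tumor site and organ between the sites. In summed counts of a cell class, more RNA per cell and a larger share of cells carrying it cannot be told apart.

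*Tpm2* was higher in fibroblasts of either tumor site than in those of unchallenged lung. Its levels were 35.5, 52.1 and 32.3 CPM in unchallenged lung replicates 4, 5 and 6, 188 and 155 CPM in lung metastasis replicates 5 and 6, and 151, 164 and 134 CPM in primary tumor replicates 4, 5 and 6. Every tumor library lay above every lung library. In the lung metastasis TME, mesothelial-like cells held 235 *Tpm2* UMIs at 183 CPM, against 2 UMIs at 15.4 CPM in those of unchallenged lung. Alveolar fibroblast-like cells held 59.5 against 36.9 CPM and adventitial fibroblast-like cells 70.8 against 54.5 CPM, with overlapping counting intervals. The metastasis level thus lay mostly in mesothelial-like cells, whose share differed between tissues. The log2 fold change of *Tpm2* was 2.11 ± 0.35 (SE) for the lung metastasis TME against unchallenged lung (edgeR adjusted p = 0.00693) and 1.92 ± 0.33 for the primary tumor TME (edgeR adjusted p = 0.00183). Between the tumor sites it was 0.18 ± 0.33 (edgeR adjusted p = 0.847). Both calls of *Tpm2* held without the fibroblasts that had a UMI of *Rgs5*, *Notch3* or *Hhip*, an alternative added after the data were seen, at 2.42 and 2.31 (edgeR adjusted p = 0.043 and 0.0173). They were lost when the clusters led by another type and the pericyte-like and peribronchial-like cells were put back, at 0.64 and 1.08 (edgeR adjusted p = 0.726 and 0.395).

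*Des* was higher in fibroblasts of lung metastases than in those of primary tumors. The metastasis libraries held 94.8 and 75.6 CPM of *Des* in replicates 5 and 6, the primary tumor libraries 0, 4.47 and 9.71 CPM in replicates 4, 5 and 6, and the lung libraries 47.4, 10.2 and 17.6 CPM in replicates 4, 5 and 6. Metastasis libraries did not overlap those of either other tissue. The log2 fold change of *Des* was 3.79 ± 0.64 against the primary tumor TME (edgeR adjusted p = 0.00534) and 2.09 ± 0.65 against unchallenged lung, where it missed the threshold (edgeR adjusted p = 0.0751) and passed it without unchallenged lung replicate 4, without primary tumor replicate 4 or without the filter (edgeR adjusted p = 0.0263, 0.0348 and 0.000226). The p-value without the filter comes from the same libraries and does not measure the spread between them alone. *Des* UMIs were spread over 69 of 309 fibroblasts in lung metastasis replicate 5, the 5 highest of which held 27.3%, and over 9 of 37 in replicate 6. Mesothelial marker genes differed between the sites as *Des* did, at 1254 and 1210 CPM in metastasis fibroblasts and 15.4 to 19.7 CPM in those of primary tumors. They did not follow *Des* in unchallenged lung, whose fibroblasts held 329 to 1338 CPM of them with less *Des*. The mesothelial-like cells of lung held 15.4 CPM of *Des* from 2 UMIs. Over the lung metastasis libraries, mesothelial-like cells held 113 *Des* UMIs, alveolar fibroblast-like cells 6 and adventitial fibroblast-like cells 1. With mesothelial-like cells left out, 6 fibroblasts remained in lung metastasis replicate 6, so that the fit held replicate 5 alone with 96 cells. Of these 96 cells 63 were alveolar fibroblast-like. The log2 fold of *Des* against the primary tumor TME was then 4.20. These 96 cells include the 9 of the *Stc1*, *Apod* and *Igfbp3* cluster, which held 34 *Des* UMIs. The 139 *Des* UMIs of replicate 5 are those of all 309 fibroblasts, mesothelial-like cells included. The fold of 4.20 thus rested largely on these 9 cells, and it was not computed without them. The call was lost without lung metastasis replicate 5, at a log2 fold of 3.54 (edgeR adjusted p = 0.133), and with every cell of the class, at 1.04 (edgeR adjusted p = 0.815). Without fibroblasts holding *Rgs5*, *Notch3* or *Hhip* it was kept, at 3.48 (edgeR adjusted p = 0.0143).

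*Mustn1* was lower in primary tumor fibroblasts than in those of the other tissues. It was at 35.5, 65.7 and 44.0 CPM in unchallenged lung replicates 4, 5 and 6, at 40.2 and 25.2 CPM in lung metastasis replicates 5 and 6 and at 5.27, 13.4 and 7.21 CPM in primary tumor replicates 4, 5 and 6. The primary tumor libraries lay below all others. The log2 fold change of *Mustn1* was -2.55 ± 0.43 for the primary tumor TME against unchallenged lung (edgeR adjusted p = 0.00177) and 2.08 ± 0.47 for the lung metastasis TME against the primary tumor TME (edgeR adjusted p = 0.0226). The former call was lost with every cell of the class, at -0.68 (edgeR adjusted p = 0.608). The latter call was lost without lung metastasis replicate 5, primary tumor replicate 4 or primary tumor replicate 6 (edgeR adjusted p = 0.475, 0.0605 and 0.139). The *Mustn1* counts behind it are 59 and 6 UMIs in the metastasis libraries and 4, 9 and 23 in the primary tumor libraries.

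*Acta2*, *Tagln* and *Myl9* did not pass in any comparison of all fibroblasts, but *Acta2* and *Tagln* passed against lung under some alternatives. For *Acta2* the log2 fold change was 1.14 ± 0.73 for the lung metastasis TME against the primary tumor TME (edgeR adjusted p = 0.466), 2.55 ± 0.80 for the lung metastasis TME against unchallenged lung (edgeR adjusted p = 0.0775) and 1.40 ± 0.74 for the primary tumor TME against unchallenged lung (edgeR adjusted p = 0.224). The *Acta2* levels of the metastasis libraries did not overlap those of either other tissue. Without the 9 cells named above the fold against the primary tumor TME was 0.55. They were left out of the metastasis libraries alone, while the 256 primary tumor cells of the same cluster, at 216 CPM of *Acta2*, stayed in. Leaving out high cells on 1 side lowers the fold by construction, so 0.55 is no test. Without unchallenged lung replicate 6, where 5 cells held all 32 *Acta2* UMIs, *Acta2* was called against lung in both tumor sites, at log2 folds of 3.83 and 2.66 (edgeR adjusted p = 0.0247 and 0.0416). The same was found without the fibroblasts that had a UMI of *Rgs5*, *Notch3* or *Hhip*, at 3.33 and 2.91 (edgeR adjusted p = 0.0267 and 0.0147), and without the filter on low counts, at 2.61 and 1.505 (edgeR adjusted p = 8.7e-08 and 0.00179). Without the filter the libraries were the same and the folds stayed close to 2.55 and 1.40. Its p-values, here and for *Tagln*, therefore do not measure the spread between libraries alone. *Tagln* had log2 folds of 1.19 ± 0.70, 1.92 ± 0.74 and 0.74 ± 0.68 in these 3 comparisons (edgeR adjusted p = 0.430, 0.141 and 0.507). *Tagln* was called against lung in both sites without unchallenged lung replicate 4, at 3.16 and 1.97 (edgeR adjusted p = 0.0177 and 0.0434), and for the lung metastasis TME without the filter, at 1.98 (edgeR adjusted p = 0.000127). *Myl9* was at 35.5, 72.5 and 41.1 CPM in lung, 60.0 and 8.40 CPM in metastasis and 15.8, 22.3 and 17.2 CPM in primary tumor fibroblasts. Its log2 fold of -1.45 ± 0.51 for the primary tumor TME against unchallenged lung missed the threshold (edgeR adjusted p = 0.0668) and passed it without mesothelial-like cells, at -1.62 (edgeR adjusted p = 0.00767). In the same fit, with replicate 5 alone for metastasis, *Myl9* was at 2.63 between the sites (edgeR adjusted p = 0.00852), and the replicate left out was the one with the lower *Myl9* level.

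**Figure D4:**
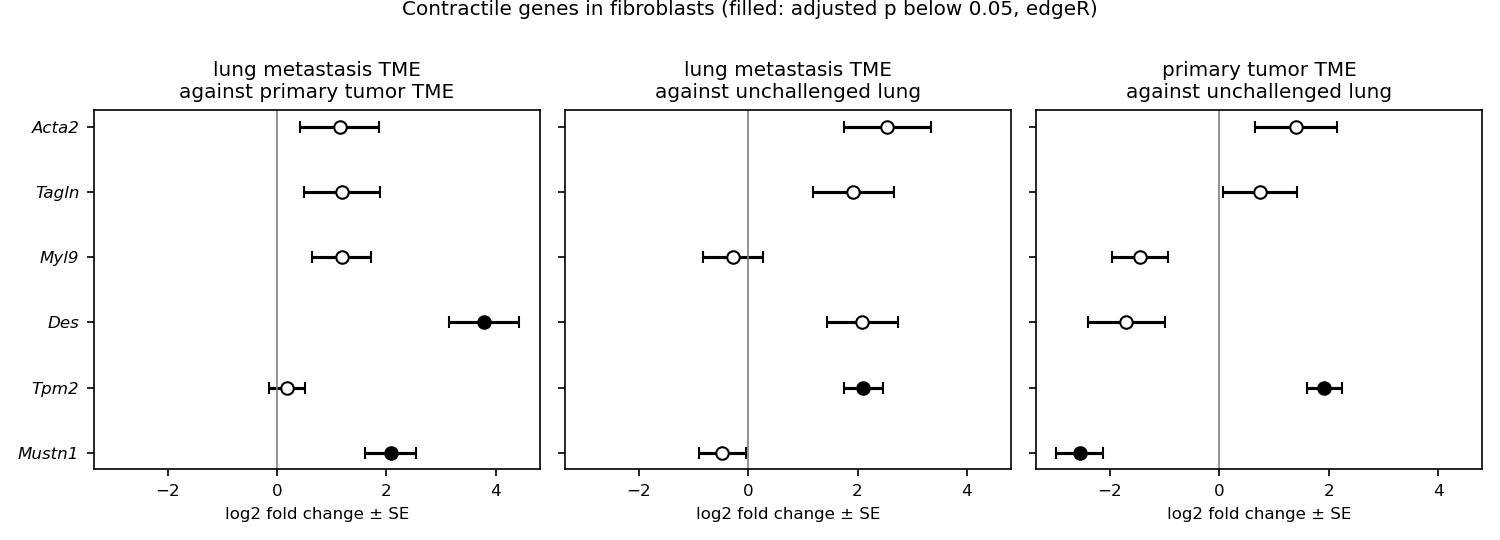
Log2 fold change of the 6 tested genes in fibroblasts for the 3 comparisons of tissues, with bars of 1 SE from edgeR and filled points at an adjusted p below 0.05. *Tpm2* is filled against unchallenged lung for both tumor sites (2.11 and 1.92), *Des* and *Mustn1* are filled between the sites (3.79 and 2.08), and *Acta2*, *Tagln* and *Myl9* are open throughout.

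Counted over the genes, 2 of the 6 tested were called between the lung metastasis TME and the primary tumor TME, where 5.33% of all tested genes were. Both were higher (3.39% of all genes) and 0 were lower (1.95%), by edgeR and by DESeq2. An unadjusted p below 0.05 in edgeR was found for 2 of the 6, and for 1686 of all 9805 genes. Against unchallenged lung, 1 of 6 was called in the lung metastasis TME (7.30% of all genes), higher (4.11%), and 0 were lower (3.19%), by edgeR and by DESeq2. In either direction 4 of 6 had an unadjusted p below 0.05 in edgeR, as had 2247 of all 9805 genes. In the primary tumor TME 2 of 6 were called (18.6% of all genes), 1 higher (8.71%) and 1 lower (9.85%), and DESeq2 called *Des* lower as well, at a log2 fold of -2.01 (DESeq2 adjusted p = 0.0466). The median log2 fold of the 6 genes was 1.18, 2.01 and -0.36 in these 3 comparisons, against 0.00, 0.02 and 0.03 over all genes tested.

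Of the other genes of contraction, more were lower than higher in primary tumor fibroblasts against lung. Of 32 contractile partner genes 21 were tested, and in the primary tumor TME 10 were lower and 3 higher than in unchallenged lung, against 9.85% and 8.71% of all genes tested, with a median log2 fold of -0.93. Those lower included *Mylk*, the kinase that activates myosin light chain (log2 fold change -4.91, edgeR adjusted p = 0.00016), *Ppp1r14a*, an inhibitor of myosin phosphatase (-6.92, edgeR adjusted p = 0.000169), *Fhl1* (-4.92), the integrin *Itga8* (-5.79), *Nexn* (-3.20), *Synm* (-3.29), *Gucy1a1* (-2.77), *Prkg1* (-2.57), *Jph2* (-2.48) and *Csrp1* (-1.72). Those higher were *Cald1* (1.13), *Smtn* (1.46) and *Pdlim7* (1.55), which bind actin or its bundles. In the lung metastasis TME 5 were lower than in lung, namely *Itga8*, *Nexn*, *Ppp1r14a*, *Synm* and *Fhl1*, and *Pdlim7* was higher at a log2 fold of 1.44, against 3.19% and 4.11% of all genes. Without mesothelial-like cells, where the metastasis arm was replicate 5 alone, 0 of 23 tested partners were called in this comparison, with *Ppp1r14a* at -0.60, *Fhl1* at -0.63, *Synm* at -0.75, *Nexn* at -0.67, *Itga8* at -1.09 and *Pdlim7* at 1.42. In that fit the median log2 fold of the partners for the primary tumor TME against lung was -0.74, with 10 of 23 above 0, against 0.02 over all genes. Against the primary tumor TME, *Gucy1a1* (2.71), *Ppp1r14a* (3.97) and *Mylk* (3.25) were higher in the lung metastasis TME and 0 partners were lower, against 3.39% and 1.95% of all genes. Of the 21 partners, 7 had an unadjusted p below 0.05 in edgeR, as had 1686 of all 9805 genes. Without mesothelial-like cells the median log2 fold of the partners between the sites was 0.51, with 14 of 23 above 0, against -0.03 over all genes. *Ppp1r14a* was then at 6.42, *Itga8* at 4.78, *Fhl1* at 4.43, *Mylk* at 4.25, *Nexn* at 2.66, *Csrp1* at 2.53 and *Gucy1a1* at 2.40. *Mylk*, *Ppp1r14a* and *Fhl1* were at 515, 378 and 917 CPM over all fibroblasts of unchallenged lung, so these partners are not specific to contractile cells there. Alveolar fibroblast-like cells made up 113 of 301 fibroblasts of unchallenged lung, 72 of 357 of the lung metastasis TME and 0 of 882 of the primary tumor TME. *Itga8* is among the markers by which they were named. The part of this makeup in the partner results was not tested.

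Matrix genes of activated fibroblasts moved the other way. Of 24 tested genes of a list of myofibroblast matrix and activation, 18 were higher in the primary tumor TME than in unchallenged lung and 1, *Sfrp1*, was lower, against 8.71% and 9.85% of all genes tested, with a median log2 fold of 2.76. *Postn* (log2 fold change 7.37, edgeR adjusted p = 7.48e-05), *Cthrc1* (6.40, edgeR adjusted p = 6.97e-05), *Tnc* (6.83), *Lrrc15* (8.51), *Col11a1* (9.27), *Adam12* (8.58), *Col8a1* (5.83) and *Inhba* (4.95) rose most, and *Fap*, *Thbs2*, *Col12a1*, *Ltbp2*, *Col1a1*, *Col3a1*, *Col5a1*, *Col5a2*, *Fn1* and *Loxl2* rose by log2 folds of 2.15 to 4.16. *Postn*, *Cthrc1*, *Tnc*, *Lrrc15* and *Inhba* are also among the 6 markers by which tumor fibroblast-like clusters were named and kept. Their differences between tissues are thus in part built into the choice of cells, and this part was not tested. In the lung metastasis TME 10 of the 24 were higher than in lung (4.11% of all genes) and 0 lower (3.19%), with a median of 1.67. They were *Postn* (3.68), *Cthrc1* (3.05), *Adam12* (9.20), *Col11a1* (7.18), *Ltbp2* (3.97), *Inhba* (2.75), *Col8a1* (2.75), *Fn1* (2.35), *Col5a2* (2.30) and *Loxl2* (1.64). Between the sites 7 were lower in the lung metastasis TME (1.95% of all genes), namely *Postn* (-3.69), *Tnc* (-4.13), *Cthrc1* (-3.35), *Fap*, *Lrrc15*, *Col8a1* and *Thbs2*, and *Sfrp1* was higher. The makeup of the fibroblasts differed between tissues, with 246 of 357 mesothelial-like in the lung metastasis TME, 56 of 301 in unchallenged lung and 7 of 882 in the primary tumor TME. Alveolar fibroblast-like cells numbered 72, 113 and 0 in the same order. Tumor and organ cannot be told apart in the values of the primary tumor TME against lung. In an alternative chosen after seeing the data, without mesothelial-like cells and so with replicate 5 alone for metastasis, 25 genes of the list were tested. For the lung metastasis TME against lung 2 of them were then called higher, *Postn* (4.91, edgeR adjusted p = 0.0229) and *Col8a1* (4.18, edgeR adjusted p = 0.0171), with a median of 0.66, and 67 genes were called over all genes in place of 716. Between the sites 1, *Fap*, was then called lower in the lung metastasis TME (-2.68, edgeR adjusted p = 0.0188). The log2 fold was above 0 for 1 of the 25, with a median of -1.55, and among those not called *Tnc* was at -3.39, *Thbs2* at -3.09, *Cthrc1* at -2.58 and *Postn* at -2.31. For the primary tumor TME against lung the median log2 fold was 2.55, with 21 of 25 above 0, against 0.02 over all genes. Against lung, the median of the primary tumor TME was thus close to the 2.76 of all fibroblasts. That of the lung metastasis TME, with 1 library in that fit, was smaller than before. Measured by the contractile genes, *Tpm2* alone was called higher than in lung at both sites, and its metastasis UMIs lay mostly in mesothelial-like cells. *Myh11* and *Cnn1* stayed at 0 to 14 UMIs per library. At most 2.78% of fibroblasts in any of the 8 libraries carried 3 or more of the 10. The 9 cells of lung metastasis replicate 5 described above were the group where most did. Clustering with the contractile genes left at most 2 of these 9 in tumor fibroblast-like clusters. Markers of MM cells were at 663 to 3812 CPM in the fibroblasts of the 5 tumor libraries and at 0 to 5.87 CPM in those of lung, and their part in these results was not tested.

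Most regulators of these genes were found in fibroblasts, but *Myocd* and *Nkx2-3* were not. *Myocd*, the cofactor of serum response factor in smooth muscle, and *Nkx2-3* had 0 UMIs in the fibroblasts of all 3 tissues, while *Myocd* had 5 UMIs in pericyte-like cells of primary tumors and 18 UMIs in the 30 peribronchial-like cells of unchallenged lung (129 CPM). *Gata6* was at 106, 196 and 31.1 CPM and *Mef2c* at 76.4, 93.7 and 73.4 CPM over the fibroblasts of unchallenged lung, the lung metastasis TME and the primary tumor TME. Of 8 regulators tested in fibroblasts, *Gata6* was higher in the lung metastasis TME than in the primary tumor TME (log2 fold change 2.90, edgeR adjusted p = 0.015), where 3.39% of all genes were. This call was lost without mesothelial-like cells, at 0.49 (edgeR adjusted p = 0.784). Against unchallenged lung *Foxf1* was lower (-2.37) and *Tbx18* higher (2.13) in the primary tumor TME, and 1 of 8 in each direction is close to the 9.85% and 8.71% of all genes. Of 16 genes of inflammatory fibroblasts 15 were tested. In the primary tumor TME 5 were higher than in lung and 3 lower, against 8.71% and 9.85% of all genes tested. In the lung metastasis TME 4 were higher than in lung, namely *Saa3*, *Ccl2*, *Ccl7* and *Cxcl1*, and 0 lower, against 4.11% and 3.19% of all genes. Between the sites *Saa3* and *C3* were higher and *Ccl7* and *Has2* lower in the lung metastasis TME, against 3.39% and 1.95% of all genes. Without mesothelial-like cells, in a fit with 1 metastasis library, *Saa3* was at 8.06, *Ccl7* at 6.58 and *Cxcl1* at 0.88 for the lung metastasis TME against lung. Between the sites the median log2 fold of these genes was then -0.56, with 7 of 15 above 0, against -0.03 over all genes. *Saa3* was at 1.44 and *C3* at 2.33, and *Cxcl2* at -4.79, *Ccl2* at -3.20 and *Ccl7* at -2.97. Of 14 striated muscle genes 0 could be tested in fibroblasts. One of them, *Actc1*, the cardiac actin and a leading gene of the peribronchial-like cluster, was at 1028 CPM in peribronchial-like cells of unchallenged lung and at 0.664 CPM in lung fibroblasts.

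Peribronchial-like cells of unchallenged lung carried the highest levels of most of the genes. *Acta2* was at 3478, 7718 and 9599 CPM in the 11, 14 and 5 such cells of replicates 4, 5 and 6, *Tagln* at 2156, 4783 and 5370 CPM and *Myh11* at 1322, 3365 and 3041 CPM. In the lung metastasis TME, 91 of 100 peribronchial-like cells came from replicate 5, where *Acta2* was at 1036 CPM. MM cell markers stood at 11508 CPM in these 91 cells and at 0 CPM in those of unchallenged lung, 9 of 10 of them were raised in the cluster, and their median depth was 1338 UMIs. Levels of these cells are therefore given without a comparison between the tissues.

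Within this class of unchallenged lung, cells with and without a UMI of *Hhip* differed, a split chosen after the values were seen. *Hhip* binds hedgehog ligands and marks peribronchial cells. The 16 cells with a *Hhip* UMI held 368 CPM of *Acta2*, 160 CPM of *Myh11* and 0 *Cnn1* UMIs, and the 14 cells without held 11458 CPM of *Acta2*, 4563 CPM of *Myh11* and 876 CPM of *Cnn1*. *Acta2* was at 477, 310 and 161 CPM with *Hhip* and at 7208, 12977 and 13556 CPM without it in replicates 4, 5 and 6. The direction was the same in all 3 libraries for *Acta2*, *Tagln*, *Myh11*, *Cnn1*, *Myl9*, *Actg2*, *Lmod1* and *Tpm2*. *Des* had it in replicates 5 and 6, and *Mustn1* did not follow it, at 1358, 1724 and 965 CPM with *Hhip* and 228, 1322 and 1281 CPM without. At least 5 of the 10 genes were found in 12 of the 14 cells without *Hhip* and in 0 of the 15 with it that had 1000 UMIs. The cells without *Hhip* numbered 4, 8 and 2 per library and had a median of 5056 UMIs against 3549 with it. With 3 libraries the smallest two-sided p of an exact sign-flip test is 0.25, and no test was made.

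**Figure D5:**
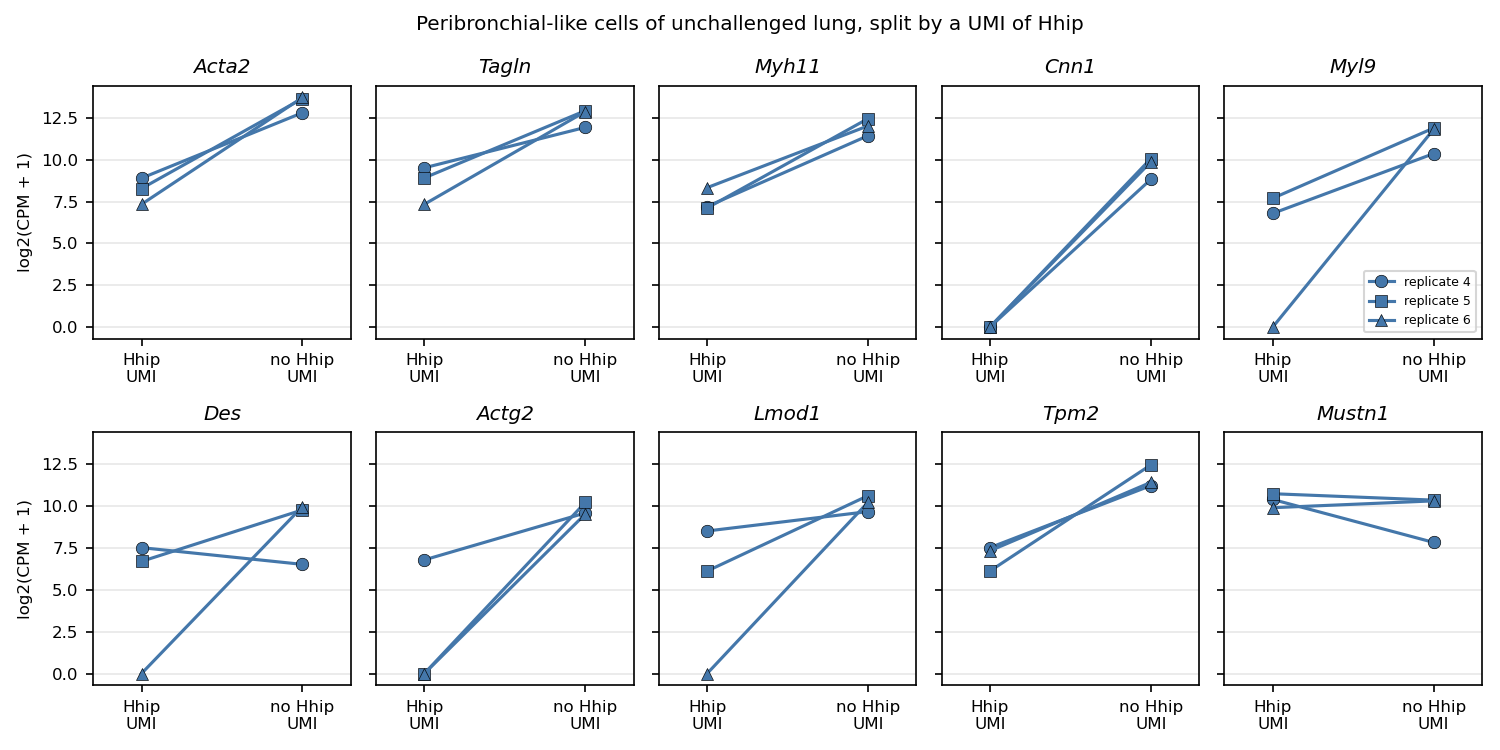
Level of the 10 genes, as log2 of CPM plus 1, in peribronchial-like cells of unchallenged lung with and without a *Hhip* UMI, with 1 line per library (replicates 4, 5 and 6). All 3 lines rise for *Acta2*, from 161 to 477 CPM to between 7208 and 13556 CPM, and for *Mustn1* replicates 4 and 5 fall and replicate 6 rises, from 965 to 1281 CPM.

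*Notch3* and *Rgs5* were counted beside the contractile genes in pericyte-like cells, as a description with no test. Of 30 such cells of the primary tumor TME with at least 5 of the 10 genes, 7 had a *Notch3* UMI (23.3%) and 22 a *Rgs5* UMI (73.3%), and of 13 cells with 0 of the genes 9 had *Notch3* (69.2%) and 11 *Rgs5* (84.6%). The former had a median of 8623 UMIs and the latter of 4064. Those of the lung metastasis TME did not show this order, with *Notch3* in 1 of 5, 3 of 10, 4 of 11 and 1 of 8 cells with 0, 1 or 2, 3 or 4 and at least 5 genes. *Acta2* and *Tpm2* occurred together in 24 of 42 pericyte-like cells with *Acta2* in primary tumor replicate 4, *Acta2* and *Tagln* in 30 of them, and *Acta2* and *Myh11* in 17. Counted without thinning, 7 pericyte-like cells of primary tumors lacked a *Rgs5* UMI. They were at 10465 CPM of *Acta2*, 3343 CPM of *Myh11* and 1793 CPM of *Cnn1*, against 4183, 645 and 57.4 CPM in the 82 cells with a *Rgs5* UMI. The metastasis libraries differed in this. In replicate 5 *Acta2* was at 2612 CPM in the 5 cells without *Rgs5* and 5715 CPM in the 22 with it, and in replicate 6 at 1468 CPM in 4 cells and 209 CPM in 3 cells. Over both libraries *Cnn1* was at 0 CPM without *Rgs5* and 22.2 CPM with it.

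Sorted MM cells held almost none of the genes. In 4 libraries the level was at most 2.71 CPM for *Acta2*, 2.17 CPM for *Tagln*, 0.174 CPM for *Tpm2* and 13.6 CPM for *Myl9*. Of 5 genes with enough counts, 0 were called between MM cells of lung metastases and primary tumors by edgeR or DESeq2, and 0 had an unadjusted p below 0.05, where 0.00695% of all 14388 genes were called in either direction. With the replicate number as a block 51 genes were called, and 0 of the 5 were among them. DESeq2 gave no adjusted p for 4 of the 5.

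The genes most like the 10 over 93 sums of a cell type in a library were searched by the Pearson r of log2(CPM + 1) with the mean of the 10 genes. Among the highest were *Pdgfrb* (r = 0.836), *Aspn* (0.821), *Heyl* (0.820), *Col6a2* (0.820), *Col6a3* (0.813), *Serping1* (0.812), *Cd248* (0.811), *Nnmt* (0.810) and *Fbn1* (0.809). *Pdgfrb* and *Heyl* are pericyte genes, and collagen VI and *Fbn1* are matrix genes of all mesenchymal cells. The 10 genes themselves had r of 0.734 (*Lmod1*) to 0.901 (*Tagln*). These sums share libraries and cell types, so the values are a description.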

How the data were processed

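The deposited counts, made by the authors with Cell Ranger 6.1.1 on GRCm38, hold UMIs per gene and cell and are not normalized; the authors removed cells by quantiles of detected genes and of ribosomal and mitochondrial shares. The deposited log-normalized table was not used. The 10 genes and all lists were chosen with earlier results of these data known. Library names identical in counts were merged, and groups follow the titles in the labels. Cells were clustered with Seurat 5.3.0 (17 components, 12 for the fibroblast class, resolution 0.5), without the 10 genes and their partners among the variable genes. A cluster was named when at least 3 markers of a type were raised (log2 fold over 1, in at least 10% of cells), and clusters of fewer than 50 cells were not named. No doublet caller was applied. Levels are CPM of UMIs summed per class and library. UMIs of 3' libraries count molecules, so no length scaling was applied. Shares used cells thinned to 1000 UMIs, with cells below that left out. Intervals and limits cover counting error only. Fibroblast sums of libraries with at least 20 cells were fitted with edgeR 4.0.16 (filterByExpr, TMM, quasi-likelihood F test), and the SE is the absolute log2 fold divided by the root of F. DESeq2 1.42.0, other size factors, no filter, a replicate block, other choices of cells and the leaving out of each library were alternatives. On simulated counts with 200 changed genes, 52.7% of changes of log2 2 and 85.1% of log2 3 were recovered among 9472 genes in the comparison of the lung metastasis with the primary tumor TME. All 10 genes are named in each comparison, and of the lists those called. R 4.3.3, Python 3.11.15 and RefSeq and GENCODE vM21 annotation were used. By library names, metastasis and primary tumor replicates 5 and 6 share their mouse numbers and are paired by mouse, while replicates 4 are not. Deviations from the group means correlated at r = -0.02 (replicate 5) and 0.22 (replicate 6) over genes. With 2 metastasis libraries these deviations mirror each other, and the unpaired metastasis replicate 5 and primary tumor replicate 4 were at 0.19. These values therefore cannot show whether the pairing matters. Not every gene of the search for similar patterns is reported here.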

Additional observations from a re-analysis of the deposited data

Results flagged for a closer look

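A signal of the 10 genes was found in cells outside the comparisons. The 1421 cells of primary tumor replicate 6 that clustered with fibroblasts but were led by MM cell genes held 776 CPM summed over the 10 genes, against 80.4 CPM in the cells led by other types in unchallenged lung replicate 6. The 619 kept fibroblasts of the same primary tumor library held 488 CPM. At least 3 of the genes were found in 2.00% of the set-aside cells, against 0.824% of the kept fibroblasts. *Acta2* was at 260 CPM, *Tagln* at 201 CPM and *Tpm2* at 196 CPM in the set-aside cells, and 20.7% of them had an *Acta2* UMI at 1000 UMIs. Both *Acta2* values lie above those of the kept fibroblasts, so the values of this library given above hold for the kept cells alone. These cells had a median of 1037 UMIs, and over all primary tumor libraries the cluster held 1216 CPM of *Col1a1* and 73.6 CPM of *Rgs5*. Sorted MM cells held at most 2.71 CPM of *Acta2*. Dixon's test was applied 10 times, to the sum of the 10 genes or to *Acta2* in BEC or macrophages of tissues with at least 4 libraries. In 0 of these did a library stand apart, where chance gives about 1 in 20. Fibroblasts, pericyte-like and peribronchial-like cells had too few libraries for it.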

How the results depend on the processing

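Of the log2 folds of single genes recomputed under the alternatives, 339 kept their direction and side of the threshold, 23 passed it, 18 no longer did and 19 turned sign, and the cause was not tested except where stated. The calls of *Tpm2*, *Des* and *Mustn1* held under DESeq2, other size factors, no filter on low counts and the replicate block, which gave 528, 685 and 1811 called genes in fibroblasts. As given above, *Acta2*, *Tagln* and *Des* were called against lung as well without the filter, and DESeq2 called *Des* lower in the primary tumor TME than in lung. Over all genes, without a filter 1127 were called between lung metastasis and primary tumor TME, 1438 between lung metastasis TME and lung, 2769 between primary tumor TME and lung, and 73 in sorted MM cells, where more genes were tested. In MM cells DESeq2 called 16 and the replicate block 51, with *Myl9* at -0.032. With every cell of the fibroblast class, 140 genes were called between the tumor sites and 121 for the lung metastasis TME against lung; between the sites *Acta2* turned to -0.64, *Tagln* to -0.14, *Myl9* to -0.25 and *Tpm2* to -0.44, and for the primary tumor TME against lung *Myl9* to 0.12 and *Des* to 0.79. The same class without cells holding *Rgs5*, *Notch3* or *Hhip*, but with clusters led by other types, gave 126, 97 and 1143, with *Acta2* at -0.18 and *Tpm2* at -0.17 between the sites. With clusters led by another type kept, 174 and 153 were called, and without mesothelial-like cells, where the metastasis arm was replicate 5 alone, 67 for the lung metastasis TME against lung, with *Myl9* at 1.01. Leaving out 1 library gave 99 to 706 genes between the sites (99 without lung metastasis replicate 5), 220 to 728 for the lung metastasis TME against lung (220 without the same library), 1030 to 2044 for the primary tumor TME against lung (1030 without primary tumor replicate 6) and 3 to 65 in MM cells. Between the sites *Myl9* then ranged from -1.18 to 1.76 and *Tpm2* from -0.035 to 0.38, and *Myl9* from -2.64 to 0.30 for the lung metastasis TME against lung, with 0.22 without unchallenged lung replicate 5. In MM cells *Acta2* ranged from -0.11 to 1.79, *Myl9* from -1.39 to 1.52, *Des* from -1.93 to 2.97, with -0.48 in a further fit below 0, and *Mustn1* from -1.47 to 0.33. A lone library was assumed to vary like the other groups. Shares with a UMI moved beyond 1 SD or the counting interval in 8 cases at 500 UMIs, against 22 that did not, and in 27 without thinning, against 3. Low counts kept *Myh11*, *Cnn1*, *Actg2* and *Lmod1* from being tested in fibroblasts, and the part of depth in this was not tested. The 37 fibroblasts of lung metastasis replicate 6 limit that library.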
